A study of Homo sapiens with 6 samples.

Results

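Genes of mitosis were listed by name, 60 in all, and 41 of them had at least 1 spot on the array, 70 spots in all out of 9169 tested; all named spots covered 6255 genes. The members were chosen by symbol, with the spot annotation updated through the gene ID. The rule itself uses no measured value, but the list was drawn up with earlier results of these data known. Counts and medians over the members are therefore descriptions, and no test was made over them. They fall into mitotic kinases and cyclins (10 of 13 listed genes measured), checkpoint and kinetochore genes (9 of 16), and spindle motors and other microtubule proteins (10 of 14). The others are the anaphase complex and its carriers (9 of 11), and condensin and cohesion genes (3 of 6). The class named after kinases and cyclins also takes in FOXM1, CDC25B, CDC25C, CKS1B, CKS2 and CDCA3. The 19 listed genes with no spot so named, among them CCNA2, CCNB2, BUB1, BUB1B, NDC80, KIF11, PTTG1, SMC2 and SMC4, were not analysed here.

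RNA came from SH-SY5Y, an established human neuroblastoma line. In the 3 DN-TRF2 samples the plasmid pIRES2-EGFP brought in dominant-negative TRF2, a disabled version of a telomere-binding protein of the shelterin complex; the 3 GFP control samples carried the plasmid pEGF-C2 without insert. All cells were selected in geneticin at 500 µg/ml, and RNA was taken on day 7 after transfection in 3 independent experiments. Each sample was hybridised as radiolabelled cDNA to 1 array of 9600 spots. The groups differ in plasmid backbone as well as insert, and the 2 cannot be told apart. No spot was named TERF2, the gene of TRF2, so the transfected gene itself was not analysed here. The design text records that cells were counted to follow proliferation, and the question addressed here is which genes of cell division differed between the groups.

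A cell enters mitosis when CDK1, bound to a B-type cyclin, is switched on by CDC25 phosphatases, with PLK1 and the Aurora kinases acting beside it. Chromosomes are compacted by condensin and attached to spindle microtubules through kinetochores, and the checkpoint proteins hold back the anaphase-promoting complex until every chromosome is attached. That complex then marks securin and cyclin B for destruction. Many of these genes are transcribed mainly in G2 and mitosis, by FOXM1, B-MYB and NF-Y acting through promoters that hold a CHR motif (cell cycle genes homology region). When cells stop dividing, the same promoters are repressed.

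Median deposited intensity ran from 517 to 681 on the DN-TRF2 arrays and from 480 to 712 on the GFP control arrays. Arrays correlated with each other at 0.987 to 0.992 among DN-TRF2 and 0.954 to 0.980 among GFP control, across spots, and the median SD of a measured mitosis gene was 0.11 in DN-TRF2 against 0.20 in GFP control. Values below are log2 of the intensity plus 50 after quantile normalisation, spots of a gene averaged, and differences are DN-TRF2 minus GFP control on that scale with the limma standard error (n = 3 arrays per group). They understate the change of dim spots. Signal is compared within a gene only, since spots of different genes differ in how well they hybridise. Precision is limited by how few arrays there are: the median half-width of the 95% interval of a member's difference was 0.33. Of 11 measured neuroblast markers, out of 20 listed, 0 had a spot at the value 10 that stands for no signal on any array. Of 26 measured markers of substrate-adherent cells, described below, 1 had such a spot. Only 1.51% to 2.48% of spots lay at or under 10 on an array, so the count of 0 does not set the neuroblast list apart. In RNA of a whole culture, fewer cells in mitosis and less RNA per mitotic cell cannot be told apart.

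In DN-TRF2 cells 29 of the 41 measured mitosis genes had a lower mean than in GFP control cells and 12 a higher mean, while 3251 of all 6255 named genes (52%) had a lower mean. The median difference was -0.087 over the mitosis genes and -0.0067 over all named genes, and the range ran from -0.36 (ZWINT) to 0.21 (CDCA5). No gene passed limma's test with Benjamini-Hochberg adjustment over all genes, among the mitosis genes (0 of 41) or in the whole table (0%), and the smallest adjusted p was 1.00. An unadjusted p under 0.05 with a lower mean was found for CDK1 and ZWINT among the members, against 67 genes in all (1.07%), and with a higher mean for 0 members, against 156 genes in all (2.49%). With single arrays left out these counts over all genes ran between 31 (DN-TRF2 replicate 2) and 238 (GFP control replicate 2) lower, and between 70 (DN-TRF2 replicate 2) and 340 (GFP control replicate 3) higher. With DN-TRF2 replicate 1 or DN-TRF2 replicate 3 left out the count of 2 became 0, and with GFP control replicate 3 left out it became 1.

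All 3 DN-TRF2 arrays lay below all 3 GFP control arrays in 6 mitosis genes (CDK1, FOXM1, PLK1, CKS2, ZWINT and KIF20A), 14.6% of those measured, and all 3 lay above in 0. Over all named genes the groups were separated in 8.95%, of which 4.25% lower and 4.7% higher. Same-numbered arrays were treated as pairs, on the basis of their values and not of the labels. Within these pairs 14 members (34.1%) were lower in DN-TRF2 in all 3, against 15.2% of all named genes. Higher in all 3 were 2 (4.88%), against 11.6%. The members higher in all 3 pairs were CCNB1 and CDC25B. On single arrays, the median of the 41 genes relative to each gene's mean over the 6 arrays was -0.054, -0.024 and -0.028 in DN-TRF2 and 0.038, 0.093 and 0.053 in GFP control. Leaving out GFP control replicate 3 gave a median difference of -0.16 and leaving out DN-TRF2 replicate 3 gave -0.055, with between 27 and 33 members lower whichever array was left out.

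**Figure D1:**
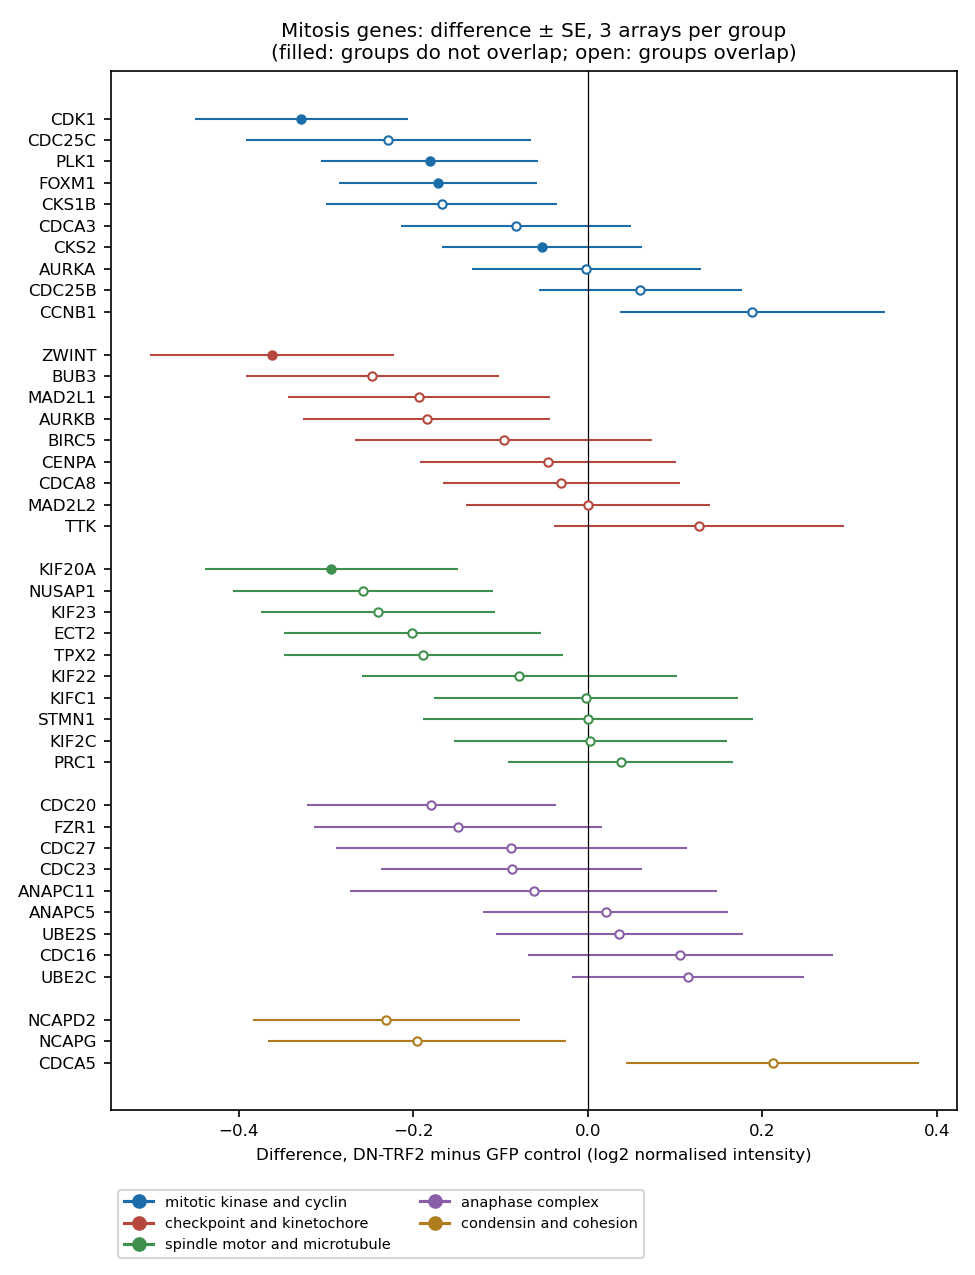
Difference in log2 normalised intensity, DN-TRF2 minus GFP control, of the 41 measured mitosis genes by class, with bars of 1 SE and 3 arrays per group. Of the 41 points 29 lie left of 0, and the 6 filled points (CDK1, PLK1, FOXM1, CKS2, ZWINT and KIF20A) are genes whose groups do not overlap.

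**Figure D2:**
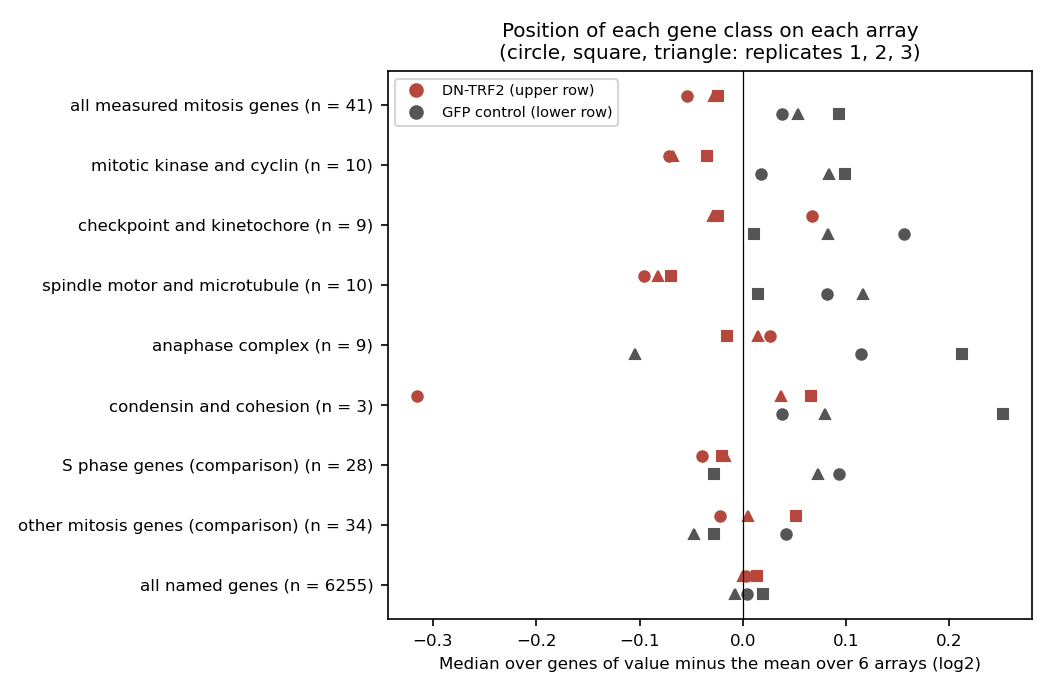
Median over the genes of each class of the value minus the gene's mean over 6 arrays (log2), per array, with DN-TRF2 above GFP control in each row. The DN-TRF2 arrays lie left of every GFP control array for all 41 mitosis genes, for mitotic kinases and cyclins and for spindle genes, and the groups overlap in the other classes.

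Promoters of the genes that separated the groups are printed here because the CHR and CCAAT elements of such promoters are known from other work on cell-cycle genes. Sequences are from the RefSeq promoter table (GRCh38.p14), 250 bases before to 50 after an annotated start, 5′ to 3′ on the gene's strand, in lower case. Capitals mark matches on either strand to TTTGAA or TTCGAA, the common forms of the CHR motif, and to CCAAT, the motif bound by NF-Y; on the other strand these read TTCAAA and ATTGG. The table held 52 of the 60 listed genes, and AURKA, BIRC5, BUB3, FOXM1, RACGAP1, TPX2, TTK and UBE2C were not in it. CDK1 (chr10:60778228-60778527, plus strand), PLK1 (chr16:23678639-23678938, plus strand), CKS2 (chr9:89310945-89311244, plus strand), ZWINT (chr10:56361210-56361509, minus strand) and KIF20A (chr5:138178862-138179161, plus strand) had separated groups. CCNB1 (chr5:69166900-69167199, plus strand) is shown beside them as a cyclin gene with a higher mean. CDK1 and ZWINT have a further annotated start each, and the window printed for CDK1 is the one with more matches.
CDK1: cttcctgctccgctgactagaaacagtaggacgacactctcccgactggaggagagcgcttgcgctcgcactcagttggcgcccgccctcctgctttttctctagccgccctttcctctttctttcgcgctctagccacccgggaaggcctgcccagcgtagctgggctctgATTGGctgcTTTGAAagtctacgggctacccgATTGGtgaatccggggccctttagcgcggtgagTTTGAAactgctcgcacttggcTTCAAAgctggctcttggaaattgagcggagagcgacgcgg
PLK1: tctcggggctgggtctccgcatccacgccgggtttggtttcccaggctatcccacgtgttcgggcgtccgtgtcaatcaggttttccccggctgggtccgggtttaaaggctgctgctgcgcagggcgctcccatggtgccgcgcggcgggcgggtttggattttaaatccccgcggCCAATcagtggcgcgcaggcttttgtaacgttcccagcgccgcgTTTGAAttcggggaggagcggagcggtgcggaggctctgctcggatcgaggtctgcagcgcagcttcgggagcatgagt
CKS2: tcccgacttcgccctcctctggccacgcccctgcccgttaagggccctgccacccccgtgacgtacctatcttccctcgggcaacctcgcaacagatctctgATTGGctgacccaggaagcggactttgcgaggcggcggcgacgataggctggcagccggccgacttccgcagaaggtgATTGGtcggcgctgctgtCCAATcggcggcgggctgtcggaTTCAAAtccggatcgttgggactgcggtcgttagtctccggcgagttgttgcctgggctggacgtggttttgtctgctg
ZWINT: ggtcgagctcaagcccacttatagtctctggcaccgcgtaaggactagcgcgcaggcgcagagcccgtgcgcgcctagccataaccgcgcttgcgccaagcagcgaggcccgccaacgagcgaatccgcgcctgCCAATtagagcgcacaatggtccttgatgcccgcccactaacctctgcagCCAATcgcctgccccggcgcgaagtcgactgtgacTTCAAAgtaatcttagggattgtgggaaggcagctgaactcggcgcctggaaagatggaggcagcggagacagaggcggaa
KIF20A: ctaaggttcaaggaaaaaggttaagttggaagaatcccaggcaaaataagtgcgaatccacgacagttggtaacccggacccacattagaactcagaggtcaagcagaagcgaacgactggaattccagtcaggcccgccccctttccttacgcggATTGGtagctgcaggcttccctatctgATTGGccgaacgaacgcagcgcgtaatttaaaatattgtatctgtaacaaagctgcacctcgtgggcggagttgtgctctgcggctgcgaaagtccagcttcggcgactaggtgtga
CCNB1: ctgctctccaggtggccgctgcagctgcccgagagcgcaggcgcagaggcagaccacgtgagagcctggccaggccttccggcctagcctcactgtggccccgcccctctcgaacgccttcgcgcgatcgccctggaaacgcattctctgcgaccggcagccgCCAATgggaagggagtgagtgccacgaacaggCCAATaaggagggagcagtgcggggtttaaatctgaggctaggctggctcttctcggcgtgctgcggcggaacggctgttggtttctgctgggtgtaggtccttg

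The CDK1 window held 3 CHR matches and 2 CCAAT matches, and those of PLK1, CKS2 and ZWINT held 1 CHR match each, at -29, -29 and -31 from the start, with 1, 3 and 2 CCAAT matches upstream of it. KIF20A and CCNB1 held 2 CCAAT matches each and no CHR match in these letters. Over the 73 windows of listed genes, 56.2% held a CHR match, 69.9% a CCAAT match and 42.5% both. The shares were 13.7%, 34.7% and 5.48% of 22199 windows of protein-coding genes. In windows of members transcribed mainly in G2 and mitosis the CHR share was 64.4%, and in those of the members listed as made through the whole cell cycle, which are subunits of the anaphase complex, its activator FZR1 and the checkpoint genes MAD2L2 and ZW10, it was 21.4%. By class it was 75% for checkpoint and kinetochore genes, 68.8% for spindle genes, 62.5% for condensin and cohesion genes, 55.6% for kinases and cyclins and 20% for the anaphase complex. Of 49 matches, counted per window, 33 lay within 40 bases of the start. Matches of the motifs overlapped each other in 4 cases. A match is a run of letters and not a measured binding site.

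Of the 34 measured genes with a promoter window, 22 had a CHR match in at least 1 window, and 19 of those 22 (86.4%) had a lower mean in DN-TRF2, with a median difference of -0.17. Of the 12 without a match, 5 had a lower mean, and their median difference was 0.00039. These 12 hold CDC16, CDC23, CDC27, ANAPC5, ANAPC11 and MAD2L2, which are listed as made through the whole cell cycle. FZR1 is the only such member among those with a match. The split by match thus runs partly along that by transcript timing, and the part of each was not tested. Among all named genes the shares with a lower mean were 55.6% of 791 with a match and 51.8% of 4353 without, at median differences of -0.022 and -0.0068. The 3 members with a match and a higher mean were PRC1, CDC25B and CDCA5. On single arrays the genes with a match lay at -0.095, -0.038 and -0.028 in DN-TRF2 and at 0.029, 0.13 and 0.11 in GFP control. Those without a match lay at 0.025, -0.019 and 0.0058 in DN-TRF2 and at 0.069, -0.018 and -0.018 in GFP control, with the groups overlapping. The split by match was not planned beforehand, and the difference between members with and without a match was not tested. Without DN-TRF2 replicate 1 the 5 lower genes without a match became 8. With median scaling they also became 8 of 12, at a median of -0.052, while those with a match stayed at 19 of 22 lower and a median of -0.17. With spots below the median signal left out, 7 of 8 genes with a match and 2 of 6 without had a lower mean, at medians of -0.065 and 0.0018.

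**Figure D3:**
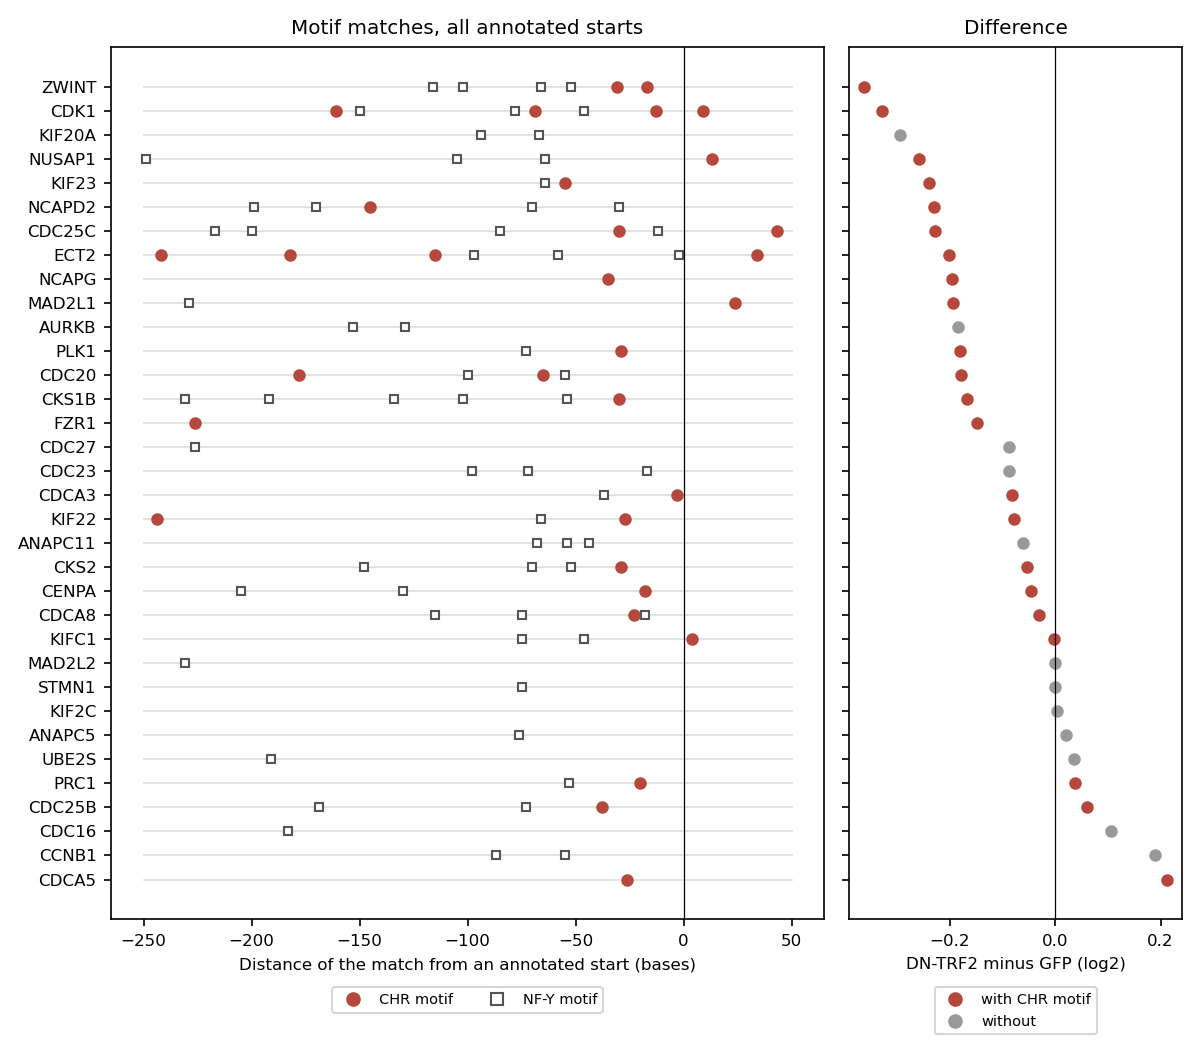
Left, distance in bases of each CHR (filled circle) and NF-Y (open square) motif match from an annotated start, over all annotated starts of the 34 measured genes with a promoter window. Right, the difference of each gene (log2, DN-TRF2 minus GFP control), red with and grey without a CHR match; genes run from ZWINT at -0.36 to CDCA5 at 0.21, and 19 of 22 red points lie left of 0.

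The class of mitotic kinases and cyclins had a lower mean in 8 of 10 measured genes, at a median difference of -0.12. None passed the test. Of its kinase and cyclin genes proper, CDK1 and PLK1 had a lower mean, AURKA lay at -0.0018 and CCNB1 was higher. CDK1, whose kinase activity starts mitosis, was at 7.15, 7.34 and 7.27 on the DN-TRF2 arrays and at 7.50, 7.64 and 7.61 on the GFP control arrays. All DN-TRF2 values lay below all GFP control values, with a difference of -0.33 ± 0.12, or 0.797 times the control on the offset scale (95% interval -0.61 to -0.05 in log2, limma unadjusted p = 0.0257, adjusted p = 1.00). Its deposited intensities before scaling were 86.6, 116 and 124 in DN-TRF2 and 109, 125 and 182 in GFP control, which makes it a dim spot, at percentile 13.4 of signal. The promoter of CDK1 printed above held the largest number of CHR matches among the 6 shown.

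FOXM1, the transcription factor of the G2 and mitosis programme, was at 9.39, 9.36 and 9.34 in DN-TRF2 and at 9.55, 9.54 and 9.52 in GFP control. The averaged values were tight within each group (SD 0.026 and 0.016) and did not overlap, at a difference of -0.17 ± 0.11. Its 3 spots differed by -0.05 ± 0.22, -0.32 ± 0.20 and -0.15 ± 0.15, and at each single spot the normalised values of the groups overlapped. PLK1, the polo kinase needed for spindle poles and mitotic exit, was at 8.33, 8.59 and 8.44 in DN-TRF2 and at 8.60, 8.65 and 8.65 in GFP control, a difference of -0.18 ± 0.12. The DN-TRF2 arrays were all lower, but 1 of the 3 PLK1 spots went the other way (0.043 ± 0.17, against -0.28 ± 0.17 and -0.31 ± 0.17).

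CDC25C, a phosphatase that activates CDK1, was at 8.86, 9.00 and 8.86 in DN-TRF2 and at 9.43, 9.13 and 8.84 in GFP control. The groups overlapped at GFP control replicate 3, and the difference was -0.23 ± 0.16 with all arrays, -0.083 without GFP control replicate 1 and -0.38 without GFP control replicate 3. The CDK-binding subunit genes CKS1B and CKS2 differed by -0.17 ± 0.13 and -0.053 ± 0.11. CKS2 was among the brightest genes, at percentile 99.5 of signal, with 13.48, 13.48 and 13.49 in DN-TRF2 and 13.52, 13.59 and 13.51 in GFP control, so that groups a few hundredths apart did not overlap. Its deposited intensities before scaling did overlap, at 11033, 12131 and 11335 in DN-TRF2 and 12259, 11922 and 11213 in GFP control. The separation of CKS2 is thus seen only after normalisation, where DN-TRF2 replicates 1 and 2 took the same value. Deposited intensities also overlapped between the groups for CDK1, ZWINT and KIF20A and at each PLK1 spot. Their separation too is seen only after normalisation. At 1 FOXM1 spot the deposited intensities did not overlap (2495, 2255 and 2588 in DN-TRF2, 2811, 2729 and 2891 in GFP control). Median deposited intensity differed between arrays, as given above.

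CCNB1, which encodes cyclin B1, the partner of CDK1, went against its kinase. It was at 8.57, 8.82 and 8.86 in DN-TRF2 and at 8.44, 8.45 and 8.81 in GFP control, a difference of 0.19 ± 0.15 with overlapping groups (limma adjusted p = 1.00), which was 0.31 without GFP control replicate 3. CDC25B, the phosphatase that starts CDK1 activation at the centrosome, differed by 0.06 ± 0.12, and 1 of its 2 spots was at or under the value 10 that stands for no signal on 5 arrays. AURKA, the kinase of spindle poles, differed by -0.0018 ± 0.13, with its 3 spots at -0.072, 0.024 and 0.042, and CDCA3, a factor in mitotic entry, by -0.082 ± 0.13. The median of the class was -0.07 without GFP control replicate 2.

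**Figure D4:**
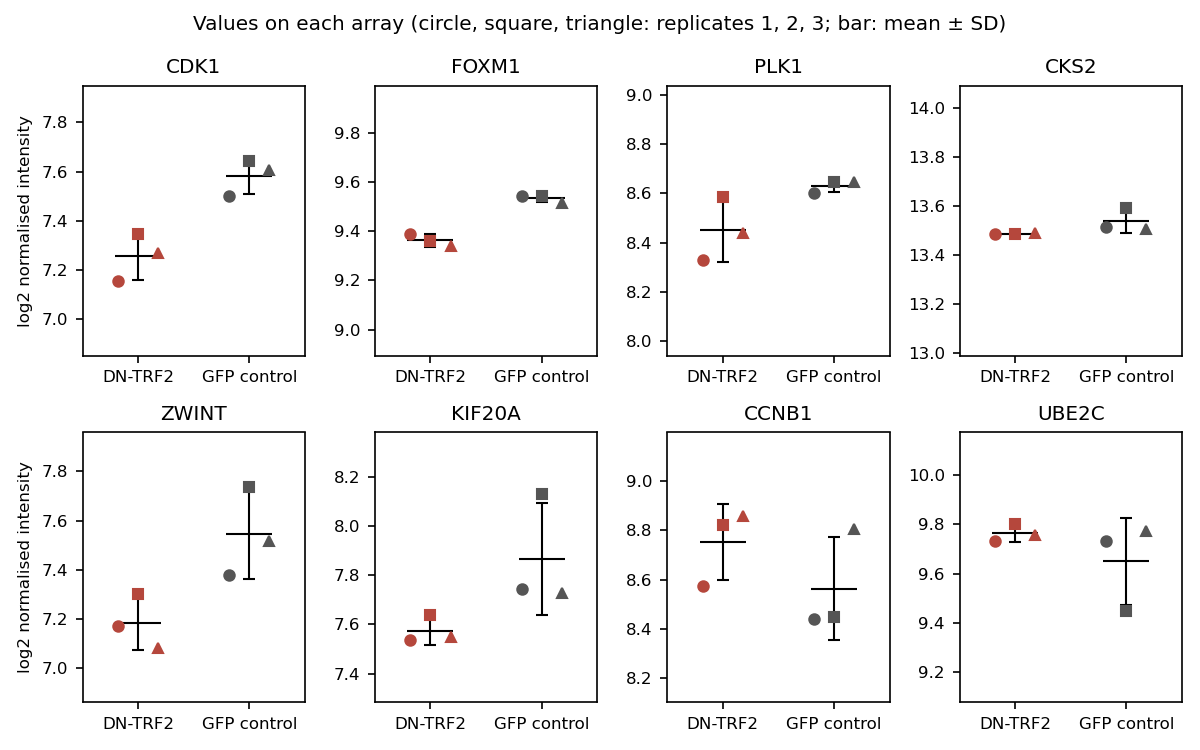
Log2 normalised intensity on each array for 8 mitosis genes, DN-TRF2 left and GFP control right, with the mean and SD of 3 arrays and panels of equal height. CDK1, FOXM1, PLK1, CKS2, ZWINT and KIF20A show no overlap between the groups, while CCNB1 and UBE2C overlap and have the higher mean in DN-TRF2.

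Checkpoint and kinetochore genes had a lower mean in 7 of 9 measured genes, at a median difference of -0.096, and none passed the test. ZWINT, a kinetochore protein that recruits the ZW10 checkpoint complex, was at 7.17, 7.30 and 7.08 in DN-TRF2 and at 7.38, 7.74 and 7.52 in GFP control. The groups did not overlap, and the difference of -0.36 ± 0.14 was the largest of any member in size (0.778 times the control, 95% interval -0.68 to -0.044, limma unadjusted p = 0.0299, adjusted p = 1.00). Its 1 spot was dim, at percentile 12.6 of signal, with deposited intensities of 88.2, 111 and 102 in DN-TRF2 and 99.3, 140 and 168 in GFP control.

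BUB3, the checkpoint protein that docks BUB1 and BUBR1 at kinetochores, was at 7.73, 7.71 and 8.05 in DN-TRF2 and at 8.23, 7.97 and 8.04 in GFP control (-0.25 ± 0.15). DN-TRF2 replicate 3 reached into the control range. MAD2L1, the gene of the checkpoint protein MAD2, which binds CDC20, was at 7.82, 8.17 and 8.11 in DN-TRF2 and at 8.04, 8.33 and 8.31 in GFP control, lower at both of its spots (-0.19 ± 0.15). The ranges of the groups overlapped, although the DN-TRF2 array was lower in each of the 3 pairs. The MAD2L1 difference was -0.082 with DN-TRF2 replicate 1 left out and -0.29 with GFP control replicate 1 left out.

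The chromosomal passenger complex, which corrects faulty attachments, was measured through AURKB, BIRC5 and CDCA8. AURKB, its kinase, was at 8.09, 7.82 and 7.88 in DN-TRF2 and at 8.30, 7.97 and 8.08 in GFP control, lower in all 3 pairs with overlapping groups (-0.18 ± 0.14). Its 3 spots were all lower, at -0.14, -0.23 and -0.19. The AURKB difference was -0.094 with GFP control replicate 1 left out. BIRC5, which encodes survivin, differed by -0.10 ± 0.17, and CDCA8, which encodes borealin, by -0.03 ± 0.14 with its 4 spots at -0.15, 0.13, 0.14 and -0.24. CENPA, the centromeric histone, differed by -0.046 ± 0.15, the checkpoint kinase TTK by 0.13 ± 0.17 and MAD2L2, a MAD2 relative that also serves DNA repair, by 0.00027 ± 0.14. Leaving out GFP control replicate 3 gave a class median of -0.15, leaving out GFP control replicate 1 gave -0.04, and leaving out DN-TRF2 replicate 3 gave -0.046.

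Spindle motors and other microtubule proteins had a lower mean in 7 of 10 measured genes, at a median difference of -0.13, and none passed the test. KIF20A, KIF23 and ECT2 serve the central spindle and cytokinesis. KIF20A, a kinesin needed for cytokinesis, was at 7.53, 7.64 and 7.55 in DN-TRF2 and at 7.74, 8.13 and 7.73 in GFP control (-0.29 ± 0.15). The groups did not overlap, and without GFP control replicate 2, the highest array, the difference was -0.16. KIF23, the kinesin of the centralspindlin complex, was at 7.19, 6.98 and 7.04 in DN-TRF2 and at 7.43, 7.14 and 7.36 in GFP control (-0.24 ± 0.13). ECT2, the exchange factor that activates RhoA at the cleavage plane, was at 8.20, 8.0 and 8.44 in DN-TRF2 and at 8.29, 8.49 and 8.46 in GFP control (-0.20 ± 0.15). Both were lower in all 3 pairs, and in both the groups overlapped. The ECT2 difference was -0.094 with DN-TRF2 replicate 2 left out and -0.31 with DN-TRF2 replicate 3 left out.

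NUSAP1, a spindle microtubule bundler, was at 8.62, 8.63 and 8.56 in DN-TRF2 and at 8.61, 9.11 and 8.86 in GFP control, lower at both spots by nearly the same amount (-0.26 ± 0.18 and -0.25 ± 0.15). Its difference of -0.26 ± 0.15 came to -0.13 without GFP control replicate 2. TPX2, the activator of Aurora A on the spindle, differed by -0.19 ± 0.16 and the chromokinesin gene KIF22 by -0.078 ± 0.18. TPX2 was at -0.043 with GFP control replicate 1 left out and -0.33 with GFP control replicate 3 left out, and KIF22 turned to 0.043 with DN-TRF2 replicate 3 left out and to 0.03 with GFP control replicate 1 left out. Against these, PRC1, which bundles the central spindle that KIF20A and KIF23 act on, differed by 0.038 ± 0.13 with its 2 spots of opposite sign. KIF2C, a microtubule depolymerase, KIFC1, a minus-end motor, and STMN1, the microtubule-destabilising protein stathmin, lay at 0.0031 ± 0.16, -0.002 ± 0.17 and 0.00051 ± 0.19. With spots below the median signal left out, the class median was 0.00051.

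The anaphase-promoting complex and its carriers had a lower mean in 5 of 9 measured genes, at a median difference of -0.062, and none passed the test. CDC20, which activates the complex at the metaphase to anaphase step, was at 10.50, 10.29 and 10.13 in DN-TRF2 and at 10.61, 10.49 and 10.36 in GFP control (-0.18 ± 0.14). It was lower in all 3 pairs and at all 5 of its spots, where the differences ran from -0.38 to -0.042, although the groups overlapped. The CDC20 difference was -0.093 with DN-TRF2 replicate 3 left out and -0.28 with DN-TRF2 replicate 1 left out. FZR1, the activator that takes over at mitotic exit and in G1, was at 8.10, 8.37 and 8.55 in DN-TRF2 and at 8.43, 8.73 and 8.32 in GFP control (-0.15 ± 0.16). The groups overlapped, and the FZR1 difference was -0.03 with DN-TRF2 replicate 1 or GFP control replicate 2 left out.

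UBE2C, the ubiquitin carrier that starts chains for the complex, was at 9.73, 9.80 and 9.76 in DN-TRF2 and at 9.73, 9.45 and 9.77 in GFP control (0.12 ± 0.13). GFP control replicates 1 and 3 lay close to the DN-TRF2 values, and the difference was 0.013 without GFP control replicate 2. Its 2 spots went opposite ways, with 9.36, 9.32 and 9.40 in DN-TRF2 against 8.90, 8.78 and 9.33 in GFP control at 1 spot (0.36 ± 0.17), and 10.10, 10.29 and 10.11 against 10.57, 10.12 and 10.21 at the other (-0.13 ± 0.16). UBE2S, the carrier that extends the chains, differed by 0.036 ± 0.14 with its 2 spots also split.

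Of the core subunits, CDC16 was at 10.40, 10.60 and 10.55 in DN-TRF2 and at 10.76, 10.11 and 10.36 in GFP control, a difference of 0.11 ± 0.17 that turned to -0.042 without GFP control replicate 2. CDC23, CDC27, ANAPC11, which holds the catalytic RING domain, and ANAPC5 differed by -0.087 ± 0.15, -0.087 ± 0.20, -0.062 ± 0.21 and 0.021 ± 0.14. The spots of CDC23 lay at -0.16, -0.16 and 0.061 and those of ANAPC5 at -0.088, 0.05 and 0.10. These subunits, with FZR1, BUB3 and MAD2L2, make up the 8 measured members listed as made through the whole cell cycle. Of the 8, 5 had a lower mean, with BUB3 and FZR1 lowest, at a median difference of -0.075, with 0 lower in all 3 pairs. Of the 33 members transcribed mainly in G2 and mitosis 24 had a lower mean, at a median of -0.096, with 14 lower in all 3 pairs (42.4%). Among all named genes 15.2% were lower in all 3 pairs, a share at which few of 8 genes would be. The difference between the 2 kinds was not tested. With single arrays left out, the median of the steady kind ran between -0.21 (GFP control replicate 3) and -0.017 (GFP control replicate 2). That of the periodic kind was -0.15 with GFP control replicate 3 left out. The anaphase class median moved by over 1.5 times with any array left out, between -0.20 (GFP control replicate 3) and 0.01 (DN-TRF2 replicate 3).

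Of the chromosome structure genes 3 were measured, 2 with a lower mean, at a median difference of -0.20. NCAPD2, a regulatory subunit of condensin I, was at 10.04, 10.25 and 10.43 in DN-TRF2 and at 10.41, 10.67 and 10.33 in GFP control (-0.23 ± 0.15), and NCAPG, its partner subunit, was at 7.27, 7.73 and 7.70 in DN-TRF2 and at 7.53, 7.92 and 7.84 in GFP control (-0.20 ± 0.17). Both groups of values overlapped. CDCA5, which encodes sororin, the protector of sister chromatid cohesion, was at 8.68, 8.87 and 8.60 in DN-TRF2 and at 8.65, 8.18 and 8.69 in GFP control (0.21 ± 0.17). GFP control replicate 2 was the lowest CDCA5 array, and the difference was 0.045 without it. The NCAPG difference, which is also the class median, was -0.046 without DN-TRF2 replicate 1.

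Of the 41 genes 18 had several spots, and in 8 of those all spots of the gene had the same sign, always lower: CDC20 (5 spots), AURKB and FOXM1 (3 each), and MAD2L1, NUSAP1, BIRC5, CKS1B and CENPA (2 each). The same share was not counted over the 1481 named genes with at least 2 spots. The count of 8 therefore has no background beside it, and spots of like sign also arise without a real difference. Over the 70 spots 51 had a lower mean, against 52.7% of all spots, and 0 passed limma's test over all spots (0%). At an unadjusted p under 0.05 lay the CDK1 and ZWINT spots, both lower (1.1% of all spots), and 0 higher member spots (2.31% of all spots). The groups did not overlap at 7 spots, all lower, against 8.7% of all spots, of which 4.43% lower and 4.28% higher. Members at or below the median signal of all genes had a median difference of -0.16 and those above it -0.062, with 18 of 24 and 11 of 17 lower. Single-spot genes, at a median of -0.087, lay near genes with several spots, at -0.066.

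**Figure D5:**
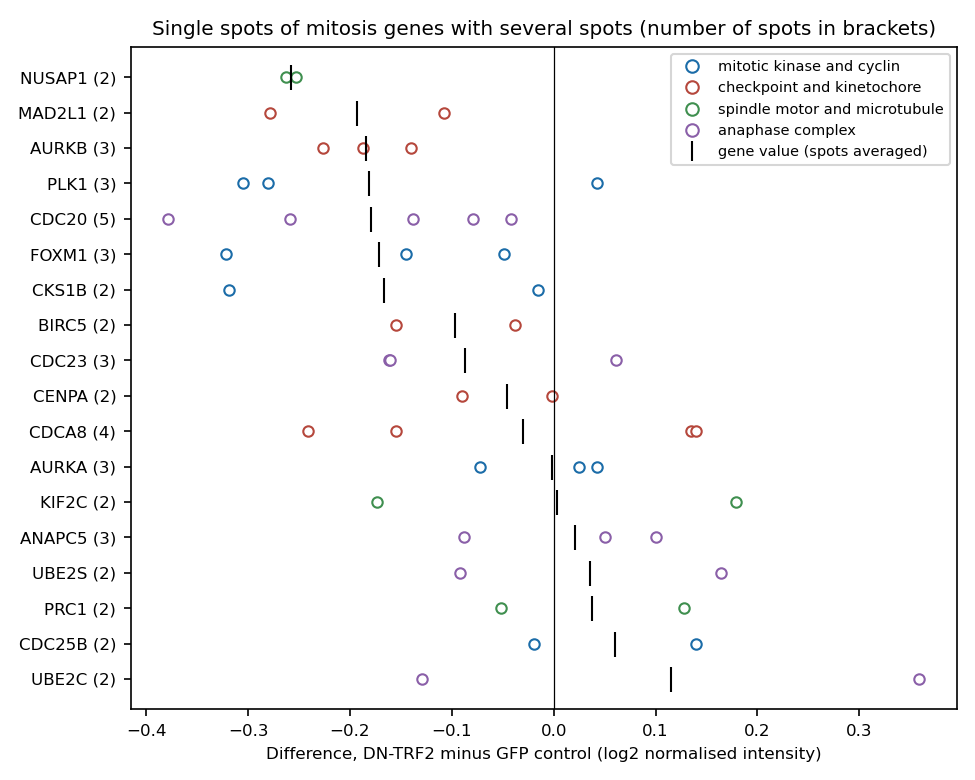
Difference (log2, DN-TRF2 minus GFP control) at each spot (circle) of the 18 mitosis genes with several spots, and of the gene with spots averaged (bar). All spots lie left of 0 for 8 genes, including the 5 of CDC20, while the 2 spots of UBE2C lie at 0.36 and -0.13.

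Other genes of mitosis, listed as 79 symbols of which 34 were measured, had a lower mean in 20, at a median difference of -0.021, with 0 passing the test. In all 3 pairs 1 was lower (2.94%, against 15.2% of all named genes) and 5 were higher (14.7%, against 11.6%). Their median was 0.02 with GFP control replicate 1 left out and -0.061 with GFP control replicate 3 left out. ANAPC13, a small subunit of the anaphase-promoting complex, differed by 0.39 ± 0.13, CEP55, an abscission protein, by 0.33 ± 0.15, CKAP2, a spindle protein, by -0.27 ± 0.16 and CDK7, the kinase that activates CDK1, by 0.26 ± 0.17. Of 28 measured S phase genes 15 had a lower mean, at a median of -0.07 (-0.033 with DN-TRF2 replicate 1 left out). In all 3 pairs 10 were lower (35.7%, against 34.1% of the mitosis genes and 15.2% of all named genes). The smallest p in that list were those of the helicase subunit gene MCM7 (-0.43 ± 0.14), the licensing inhibitor gene GMNN (-0.26 ± 0.12), the nuclease gene FEN1 (-0.27 ± 0.12) and the ribonucleotide reductase gene RRM2 (-0.27 ± 0.14), each without overlap between the groups. None passed limma's test (adjusted p = 1.00 for each). Of the 28 S phase genes 5 were separated with DN-TRF2 lower (17.9%, against 4.25% of all named genes) and 0 with DN-TRF2 higher. At limma's unadjusted p under 0.05, 2 had a lower mean (7.14%, against 1.07%). Among the mitosis genes the shares with DN-TRF2 lower were 14.6% and 4.88%. CHR matches were found in 28.7% of windows of the other mitosis genes and 6.82% of those of S phase genes.

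Markers of substrate-adherent cells, the flat cell type that SH-SY5Y cultures can also hold, had a higher mean in 16 of 26 measured genes, at a median difference of 0.043. That median was 0.0049 with GFP control replicate 1 left out, 0.074 with DN-TRF2 replicate 1 left out and 0.004 with median scaling. The groups did not overlap in 4 of the 26 with DN-TRF2 higher (15.4%, against 4.7% of all named genes) and in 1 with DN-TRF2 lower, and 3 had an unadjusted p under 0.05 with a higher mean (11.5%, against 2.49%). Their summed normalised signal ran from 40734 to 42741 in DN-TRF2 and from 39906 to 41442 in GFP control, and these sums, to which brighter spots add more, overlapped. TIMP1 (0.68 ± 0.14), S100A6 (0.59 ± 0.13), CAV2 (0.48 ± 0.15) and LUM (0.45 ± 0.20) had the smallest p of that list, and none passed. Of 11 neuroblast markers 6 had a higher mean, at a median of 0.026 that turned to -0.043 with GFP control replicate 1 left out, led by GAP43 (0.46 ± 0.17), STMN2 (0.33 ± 0.16) and GATA3 (0.21 ± 0.12), with NEFM at -0.27 ± 0.18. Of the 11, 1 was separated with DN-TRF2 higher (GATA3, 9.09%, against 4.7% of all named genes) and 0 with DN-TRF2 lower. GAP43 alone had limma's unadjusted p under 0.05 with a higher mean (9.09%, against 2.49%). The part of either cell type in the values of the mitosis genes was not tested.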

How the data were processed

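Per the labels' protocols, each array received radioactive cDNA made from about 5 µg of RNA, in 1 channel. The deposited values are linear intensity per spot; the sources used here name no image software, background treatment or scaling. The 384 blank positions, each 25th spot, and 47 spots at the stand-in value 10 on all 6 arrays were left out. Spots were named through the platform annotation, updated by gene ID to GRCh38.p14 (8493 of 8517 annotated spots matched): 8451 tested spots had 1 symbol, 21 had several and 697 none listed here. An offset of 50 was added, log2 taken, arrays quantile-normalised, and spots averaged per gene. All 6255 genes were fitted with limma 3.58.1 (lmFit, eBayes; R 4.3.3). Tests were two-sided and p-values were adjusted by Benjamini-Hochberg over all genes, at a threshold of 0.05. The code was tested on simulated data.

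Members and lists were chosen with earlier results of these data known. Array values are given for CDK1, ZWINT, UBE2C and the 4 genes of smallest p in each class, spot values for members with 3 or more spots, and 4 genes of smallest p for each other list; array values of CKS2 and CCNB1 were added after their values were seen. Both groups use replicate numbers 1 to 3. Subtracting group means left same-numbered arrays correlated at 0.390, 0.296 and 0.246 across spots, each above 0.1. Same-numbered arrays are treated as pairs on that basis, which comes from the values and not from the labels. P-values rest on the spread between 3 experiments per group, which limma draws toward the spread of all genes. For FOXM1, with SDs of 0.026 and 0.016, the SE used was 0.11. The main fit takes no account of the pairs.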

Additional observations from a re-analysis of the deposited data

How the results depend on the processing

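Of 17 alternative settings, 0 gave a gene past limma's adjusted p, in the members or in all 6255 genes; the smallest adjusted p was 0.255, with array weights. The replicate block and limma's trend option cannot change a difference in this balanced design, only its p. The median of the members (-0.087) and the 29 lower members were thus fixed in advance under both. The block changed no call, and at limma's unadjusted p under 0.05 it gave 121 lower genes in place of 67. Without spots below the median signal 18 members were measured, 13 of them lower and 0 at limma's unadjusted p under 0.05. That count was also 0 without the quartile of dimmest spots. Both settings drop the single spots of CDK1 and ZWINT, so these genes were not refitted there. With median scaling, which keeps them, the count was 1. Without spots below the median signal the medians were -0.075 for kinases and cyclins, 0.00051 for spindle genes, 0.032 for other mitosis genes and 0.053 for S phase genes. Without the quartile of dimmest spots they were -0.082 for kinases and cyclins, -0.040 for spindle genes and -0.010 for condensin. With median scaling the medians were -0.12 for all members, -0.18 for spindle genes and -0.16 for periodic members, and with cyclic loess -0.12 and -0.12 for members and periodic members. With the spot of highest signal they were -0.077 for kinases and 0.032 for S phase genes, and with array weights -0.010 for S phase genes. UBE2C turned to -0.13 without spots below median signal and with the brightest spot, FZR1 to 0.030 with array weights and CDC16 to -0.042 without GFP control replicate 2. Of the 41 members, 19 changed sign under at least 1 setting and 22 under none of those in which they were measured, 19 of them lower. CDK1, ZWINT, BUB3, KIF20A, KIF23 and NCAPG, among the 22, had no spot left in either setting that drops dim spots. Others had none left without spots below the median signal. The sign of such members was not tried there. Among those that changed sign, BIRC5 went to 0.027 and CDC27 to 0.039 without DN-TRF2 replicate 3, TTK to -0.041 without GFP control replicate 2 and ANAPC11 to 0.13 with array weights. With array weights the anaphase median was 0.030 and the steady median 0.013.
With 1 array left out, CDC16 ran from -0.042 to 0.28 and members at an unadjusted p under 0.05 ran from 0 to 3. Medians ran from -0.16 to -0.055 for members, -0.20 to 0.010 for the anaphase class, -0.15 to -0.040 for checkpoint genes, -0.26 to -0.046 for condensin, -0.13 to -0.070 for kinases, -0.19 to -0.095 for spindle genes, -0.15 to -0.083 for periodic and -0.21 to -0.017 for steady members. The causes were not tested. Position correction was added after seeing the data. The split of members by CHR match was not planned beforehand either.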
